A study of Mus musculus with 10 samples.

Results

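Markers of the granule cells of the dentate gyrus and of the neurons newly born there were measured in the whole hippocampus of Dp1Rhr mice and their control littermates. The markers were 10 genes of the 19938 that could be named on the array and were listed by name, with earlier results of these arrays known. Of these, 6 mark mature granule cells (Prox1, Dsp, C1ql2, Tdo2, Calb1 and Lct) and 4 mark newborn neurons (Dcx, Sox11, Neurod1 and Igfbpl1). Each was read by 1 probe set annotated to that gene alone, and all 10 were measured in every array.

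The arrays came from 10 male mice aged 16 weeks, on a C57BL/6N background per the labels, with 1 array per mouse and both hippocampi pooled within the mouse. The 5 Dp1Rhr mice carried a duplication of the part of chromosome 16 from Cbr1 to Fam3b, a segment used to model Down syndrome (DS). The 5 controls were littermates without a duplication, from the cross of the Dp5Yah and Dp1Rhr lines. None of the 10 genes lies on chromosome 16, so all were present in the normal number of copies in both groups. Since the hippocampus was taken whole, fewer cells of a type and less RNA per cell cannot be told apart in these values.

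The dentate gyrus is one of the few places in the adult mouse brain where neurons continue to be made. Radial glia-like stem cells give rise to dividing intermediate progenitors, these to neuroblasts and immature neurons, and these in turn to granule cells, whose axons, the mossy fibres, run to CA3. Prox1 is kept from the progenitor to the mature granule cell, Neurod1 and Sox11 act in the newborn neuron, Dcx is lost as the neuron matures, and Calb1 is gained. Several of these genes are also used by other cells: Prox1 and Calb1 by some interneurons, Calb1 by part of CA1, and Neurod1 by mature granule cells at a lower level.

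The values are log2 signals after RMA, a method that brings all arrays to near-equal distributions. The arrays had median log2 signals of 6.77 to 6.83 and correlated at 0.996 to 0.998. As a check of the tissue, Prox1 of the dentate gyrus, Wfs1 of CA1, Rgs14 of CA2 and Grik4 of CA3 read 9.24 or higher in all 10 arrays. Wfs1, Rgs14 and Grik4 were each the brightest of the 4 genes listed for their region. Map3k15 of CA2 and Iyd of CA3, named here after their values were seen, read 6.34 to 6.55 and 7.32 to 7.69. Control replicates 2 and 3 stood apart in genes of the choroid plexus, the epithelium that makes cerebrospinal fluid: Ttr, its thyroid hormone carrier, read 9.53 and 9.83 in them and 13.21 to 13.61 in the other arrays. The same controls had the highest mean over 10 immediate early genes, which neuronal activity switches on, at 9.16 and 9.51 against 8.19 to 8.76 in the rest. The markers and the gene lists are therefore given with and without these controls, and the markers also with a choroid plexus covariate.

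In Dp1Rhr, 1 of the 10 markers rose, Tdo2, and 0 fell (limma, adjusted p under 0.05 over all genes). Over all 19938 genes, 0.802% were called in either direction, 0.627% as higher and 0.176% as lower. The median log2 fold change was 0.05 over the 6 mature markers, with 5 above 0 and 1 below, and -0.12 over the 4 newborn markers, with 1 above 0 and 3 below, against -0.0001 over all genes. The groups did not overlap for 1 of the 10 markers, Tdo2, and for 3.52% of all genes (1.82% with Dp1Rhr higher and 1.7% with it lower). At an unadjusted p under 0.05 there were 4 of the 10 markers (Tdo2, Lct, Sox11 and Neurod1) and 15% of all genes (8.55% higher and 6.44% lower). FCROS, the rank rule of the study, was recomputed here on the 19938 genes, so its calls are not the study's own. It put Tdo2, Lct, Sox11 and Neurod1 in its tails, which held 5.39% of all genes. The 95% confidence intervals of all 10 markers lay between 0.770-fold and 1.36-fold.

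**Figure D1:**
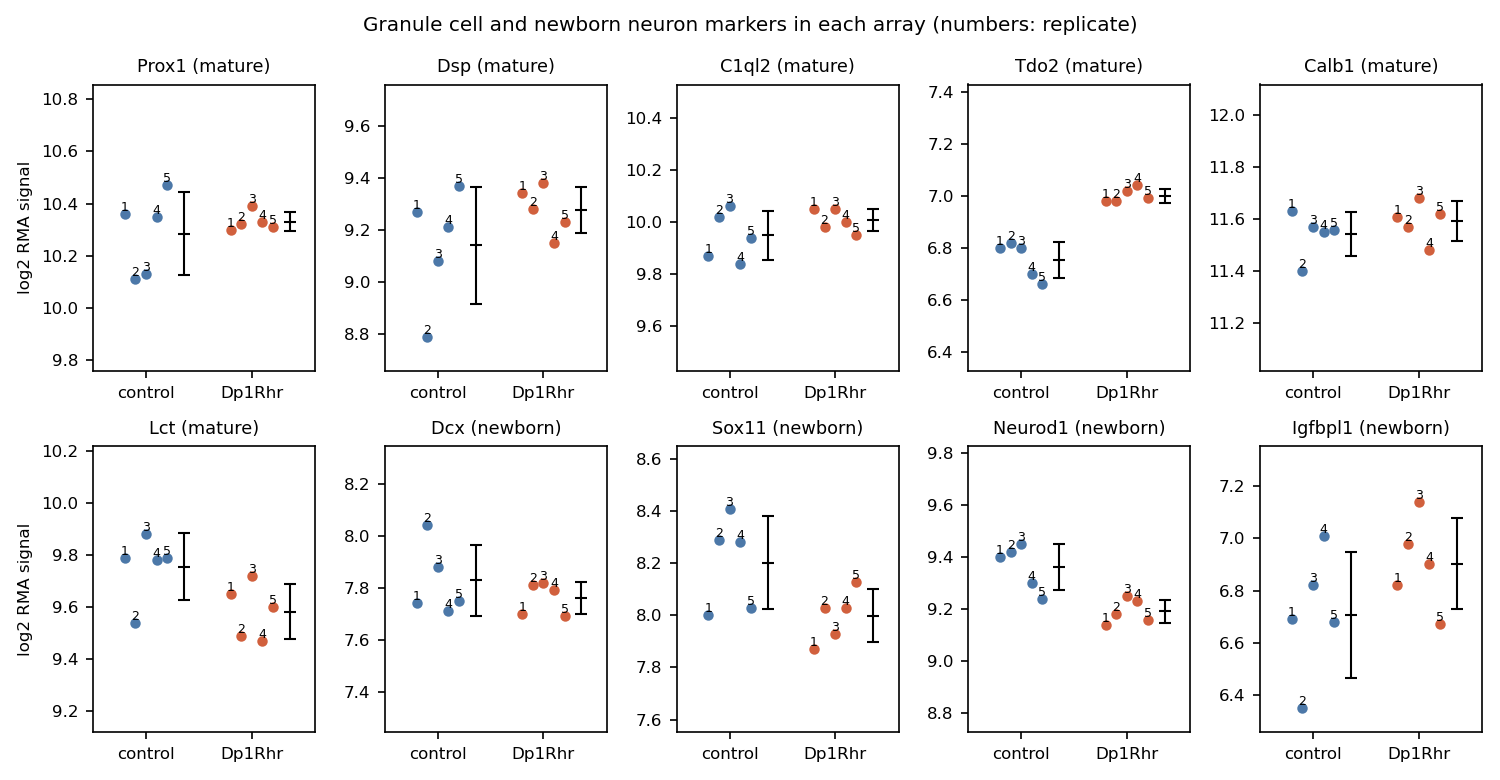
Log2 RMA signal of the 10 markers in each array (y axis, the same span of log2 units in every panel) for control (blue) and Dp1Rhr (red), n = 5 per group. Small numbers are replicate numbers, and black bars are mean and SD. The 5 Dp1Rhr arrays of Tdo2 sit between 6.98 and 7.04, above all controls (6.66 to 6.82), and in the other 9 panels the groups overlap.

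Among the mature markers, Tdo2 encodes tryptophan dioxygenase, the enzyme that opens the kynurenine pathway of tryptophan breakdown. It is best known from liver and, in the mouse brain, marks granule cells. Tdo2 (chromosome 3, positions 81958412 to 81975728, GRCm38) read 6.80, 6.82, 6.80, 6.70 and 6.66 in control replicates 1 to 5 and 6.98, 6.98, 7.02, 7.04 and 6.99 in Dp1Rhr replicates 1 to 5. Every Dp1Rhr array thus lay above every control, and the SD over the 5 mice was 0.03 in Dp1Rhr and 0.07 in control. Tdo2 rose 1.19-fold (log2 fold change 0.25 ± 0.04 SE, 95% confidence interval 1.12-fold to 1.25-fold, limma adjusted p = 0.0210). The two-sided exact permutation p was 0.00794, the smallest that the 252 assignments of arrays allow. Without control replicates 2 and 3 the log2 fold change was 0.28 and the adjusted p 0.0509, just past the threshold. The call was also lost without control replicate 5 (adjusted p = 0.0558) and without Dp1Rhr replicate 1 (0.0682), 2 (0.0747) or 4 (0.0637), while the log2 fold change stayed between 0.22 and 0.26 with any 1 array left out. The signal of Tdo2 was low, close to the median of the arrays.

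Prox1, the homeobox factor that sets granule cell identity, read 10.36, 10.11, 10.13, 10.35 and 10.47 in control and 10.30, 10.32, 10.39, 10.33 and 10.31 in Dp1Rhr. The Dp1Rhr arrays lay within the range of the controls, where replicates 2 and 3 were the lowest. The log2 fold change was 0.05 ± 0.06 SE (limma adjusted p = 0.824), with a 95% interval of 0.936-fold to 1.14-fold. Without control replicates 2 and 3 it was -0.065.

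Dsp, the desmosomal protein desmoplakin, read 9.27, 8.79, 9.08, 9.21 and 9.37 in control and 9.34, 9.28, 9.38, 9.15 and 9.23 in Dp1Rhr. Again control replicates 2 and 3 were the lowest of the 10 arrays, and the other 3 controls were spread over the same range as Dp1Rhr. Its log2 fold change was 0.13 ± 0.09 SE (limma adjusted p = 0.555), and -0.005 without those controls. Calb1, the calcium buffer calbindin of mature granule cells, had 11.63, 11.40, 11.57, 11.55 and 11.56 in control and 11.61, 11.57, 11.68, 11.48 and 11.62 in Dp1Rhr. Its groups overlapped almost wholly, with a log2 fold change of 0.05 ± 0.05 SE (limma adjusted p = 0.707) and 0.01 without control replicates 2 and 3.

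C1ql2, a secreted C1q-related protein of mossy fibre synapses, went the other way in the controls: it read 9.87, 10.02, 10.06, 9.84 and 9.94 in control, with replicates 2 and 3 the highest, and 10.05, 9.98, 10.05, 10 and 9.95 in Dp1Rhr. The log2 fold change was 0.06 ± 0.04 SE (limma adjusted p = 0.605) with all arrays and 0.12 (adjusted p = 0.215) without control replicates 2 and 3. Lct is lactase, an intestinal enzyme whose transcript also marks mouse granule cells, and it was the mature marker with a value below 0. It read 9.79, 9.54, 9.88, 9.78 and 9.79 in control and 9.65, 9.49, 9.72, 9.47 and 9.6 in Dp1Rhr. All Dp1Rhr arrays lay below 4 of the 5 controls, and control replicate 2 lay among them. The log2 fold change of Lct was -0.17 ± 0.07 SE and did not pass (limma adjusted p = 0.227, exact permutation p = 0.0556). It was -0.21 without control replicates 2 and 3 (adjusted p = 0.177).

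Of the newborn neuron markers, Neurod1, a basic helix-loop-helix factor that newborn granule cells need to survive and mature, stood closest to the threshold. Neurod1 (chromosome 2, positions 79452637 to 79456636, GRCm38) read 9.40, 9.42, 9.45, 9.30 and 9.24 in control and 9.14, 9.18, 9.25, 9.23 and 9.16 in Dp1Rhr. In 4 of the 5 Dp1Rhr arrays it lay below every control, and replicate 3, at 9.25, lay just above the lowest control. The log2 fold change was -0.17 ± 0.04 SE (0.888-fold, 95% confidence interval 0.833-fold to 0.948-fold) and did not pass (limma adjusted p = 0.0853, exact permutation p = 0.0159). It was -0.12 without control replicates 2 and 3 (adjusted p = 0.265), and between -0.20 and -0.15 with any 1 array left out.

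Sox11, a SoxC factor that switches on genes of neuronal differentiation, read 8.0, 8.29, 8.41, 8.28 and 8.03 in control and 7.87, 8.03, 7.93, 8.03 and 8.13 in Dp1Rhr. Control replicates 2, 3 and 4 lay above all other arrays, and replicates 1 and 5 lay within the range of Dp1Rhr. The log2 fold change was -0.20 ± 0.08 SE (limma adjusted p = 0.243), and -0.10 without control replicates 2 and 3 (adjusted p = 0.607).

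Dcx, doublecortin, the microtubule protein of migrating neuroblasts and the marker most used to count newborn neurons, read 7.74, 8.04, 7.88, 7.71 and 7.75 in control and 7.70, 7.81, 7.82, 7.79 and 7.69 in Dp1Rhr. The other 8 arrays lay together between 7.69 and 7.82, below control replicates 2 and 3. Its log2 fold change was -0.07 ± 0.06 SE (limma adjusted p = 0.682), with a 95% interval of 0.872-fold to 1.05-fold, and it was 0.02 without control replicates 2 and 3. Igfbpl1, a binding protein related to those of insulin-like growth factors and found in neuroblasts, varied most among the 10 markers. It read 6.69, 6.35, 6.82, 7.01 and 6.68 in control, with replicate 2 the lowest of all arrays, and 6.82, 6.98, 7.14, 6.90 and 6.67 in Dp1Rhr. Its log2 fold change was 0.19 ± 0.11 SE (limma adjusted p = 0.467), above 0 where the other newborn markers were below it, and 0.11 without control replicates 2 and 3.

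The sequence upstream of the gene start is shown for Tdo2 and Neurod1, the mature and the newborn marker whose groups lay furthest apart relative to their error. Both are the 250 bases before the start on the minus strand, from RefSeq on GRCm38.p6, at chr3:81975729-81975978 and chr2:79456637-79456886. Capitals mark the E-box, CANNTG, the hexamer that factors of the NEUROD1 family bind, which reads the same on both strands.
Tdo2: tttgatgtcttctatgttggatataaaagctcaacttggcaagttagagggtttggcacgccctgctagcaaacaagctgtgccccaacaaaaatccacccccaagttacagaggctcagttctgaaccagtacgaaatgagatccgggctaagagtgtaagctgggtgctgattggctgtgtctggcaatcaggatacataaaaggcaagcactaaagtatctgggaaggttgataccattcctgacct
Neurod1: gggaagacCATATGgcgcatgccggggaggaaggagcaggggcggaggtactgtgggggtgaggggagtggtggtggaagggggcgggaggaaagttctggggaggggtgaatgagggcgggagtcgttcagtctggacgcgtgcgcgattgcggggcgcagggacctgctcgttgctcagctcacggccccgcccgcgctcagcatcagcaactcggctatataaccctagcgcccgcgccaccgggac
The Neurod1 window held 1 E-box, CATATG, whose first base lies 242 bases before the start, and the Tdo2 window held 0. Windows were found for 8 of the 10 markers, not for Calb1 and Igfbpl1. Prox1, C1ql2, Lct, Sox11 and Neurod1 had a window with an E-box, and Dsp, Tdo2 and Dcx had none. Prox1 and Dcx had more than 1 start, so there were 10 windows, of which 5 held an E-box, against 66.2% of 32841 such windows in the genome. These matches describe the letters of the windows, and no binding was measured.

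The mature and newborn markers were then set against each other. Each gene was centred on its mean over the 10 arrays, and the genes of a class were averaged. The mature mean was 0.02, -0.16, -0.02, -0.03 and 0.03 in control replicates 1 to 5 and 0.05, 0.00, 0.11, -0.02 and 0.02 in Dp1Rhr. The newborn mean was -0.04, 0.03, 0.15, 0.08 and -0.07 in control and -0.11, 0.01, 0.04, -0.01 and -0.08 in Dp1Rhr. The groups overlapped in both, and control replicate 2 had the lowest mature mean and control replicate 3 the highest newborn mean of the 10 arrays.

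The newborn minus the mature mean had a mean ± SD over the 5 mice of 0.06 ± 0.13 in control and -0.06 ± 0.07 in Dp1Rhr. The difference between the groups was -0.12, and these SDs between single mice are not the error of that difference. The newborn minus the mature mean was highest in control replicates 2, 3 and 4, at 0.19, 0.16 and 0.11. The other controls, at -0.05 and -0.10, lay among the Dp1Rhr arrays at -0.16 to 0.02. Without control replicates 2 and 3 the difference between the groups was -0.05. No p is given for these means, since the markers were chosen with earlier results of the same arrays known.

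**Figure D2:**
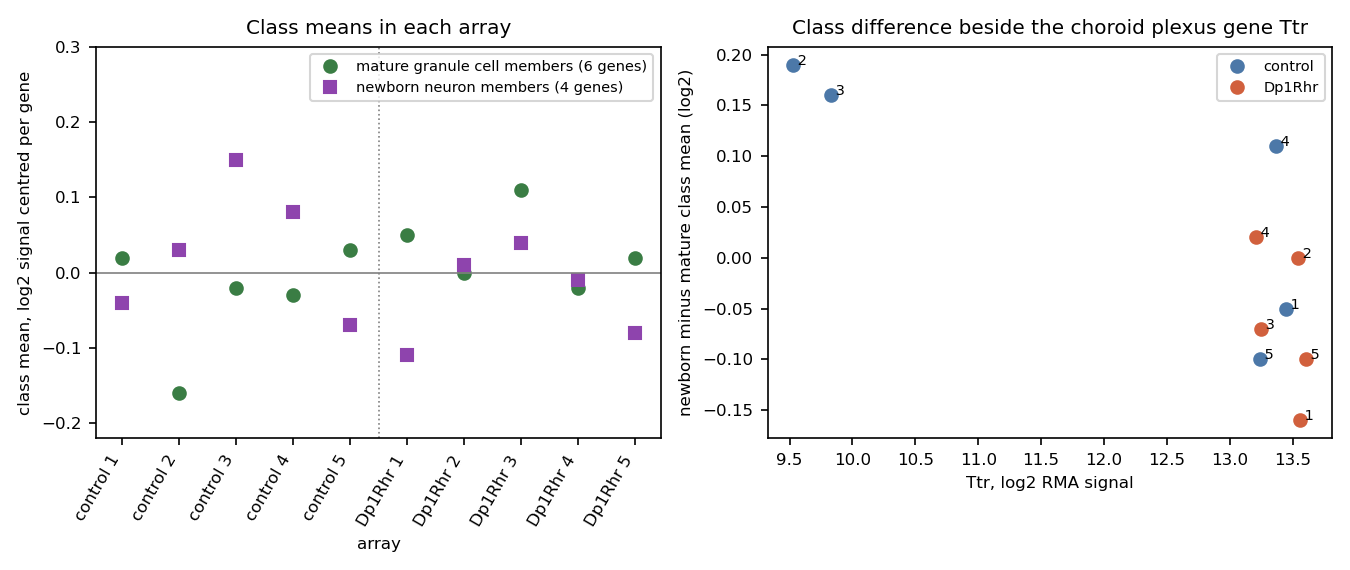
Left, mean of the mature (green circles) and newborn (purple squares) markers in each array, in log2 units after centring each gene. Right, newborn minus mature mean (log2) against the log2 signal of Ttr for control (blue) and Dp1Rhr (red), with replicate numbers. Control replicates 2 and 3, at a Ttr of 9.53 and 9.83, have the highest class differences, 0.19 and 0.16.

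How the markers varied from mouse to mouse was described by their deviations from the group mean. Tdo2 and Neurod1, whose group differences point in opposite directions, deviated together within the groups, with a Pearson r of 0.946 over 10 arrays and 0.933 over the 8 arrays without control replicates 2 and 3. Each was the second most like gene of the other among all genes on the array. Above them stood Zdhhc12 for Tdo2 (0.948) and the olfactory receptor gene Olfr517 for Neurod1 (0.969), and below them Olfr517 for Tdo2 (0.944) and Mex3c for Neurod1 (0.944). Calb1 and Lct also deviated together, at 0.876 and 0.834 without those controls.

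Dsp and Lct had an r of 0.711, and 0.683 without those controls, and Prox1 and Dsp had 0.859 and 0.627. Not all markers of a class deviated together. Tdo2 had -0.668 with Prox1 and -0.646 with Dsp, and -0.26 and -0.321 without those controls. Prox1 and C1ql2 had -0.63 and 0.692. Among newborn markers, Dcx and Neurod1 had 0.668 and 0.482. Dcx and Sox11 had 0.393 and -0.254, and Sox11 and Neurod1 0.396 and -0.135. Prox1 and Dcx had -0.690 over all arrays and 0.556 without control replicates 2 and 3, a change of sign, and Dsp and Dcx -0.773 and 0.208. Over all genes and the 10 arrays, for Prox1 the most like genes were Gm4814 (0.944), Dock10 (0.943), itself a granule cell gene, and Mir488 (0.931). For Dcx they were Plekhg6 (0.965), Zwilch (0.964) and Tsg101 (0.954), and for Sox11 Egln2 (0.984), Med24 (0.949) and Tor2a (0.935). The single most like gene was Nbeal2 for Dsp (0.972), Ppp1r3d for C1ql2 (0.965), Dtnbp1 for Calb1 (0.968), Nrg2 for Lct (0.936) and Cacng5 for Igfbpl1 (0.946). These r values are descriptions over 10 arrays. Those with genes other than the markers come from a search through all genes, as do the ranks of Tdo2 and Neurod1. The r of Tdo2 with Neurod1 was the highest of all marker pairs, and the pairs printed were named after their values were seen.

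The markers were placed among other genes of the same cells and stages. Of 10 further granule cell genes, 0 passed in either direction, with a median log2 fold change of -0.03, 3 above 0 and 7 below. They included C1ql3, a relative of C1ql2 at mossy fibre synapses, with -0.10 ± 0.05 SE (limma adjusted p = 0.345), and Plk5, a polo-like kinase of the brain, with -0.11 ± 0.08 SE (adjusted p = 0.573). Their mean level was 9.70 to 9.87 in control and 9.72 to 9.80 in Dp1Rhr. Tdo2 was therefore the 1 gene called among the 6 markers and 10 further genes of granule cells.

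Of the genes of radial glia-like stem cells, 9 of the 10 listed were measured, 1 rose and 0 fell, with a median of 0.06. The gene that rose was Hopx, a homeodomain protein without DNA binding that marks quiescent stem cells and is also made by astrocytes. It rose 1.33-fold (log2 fold change 0.41 ± 0.08 SE, limma adjusted p = 0.0494). It read 9.54 to 9.69 in Dp1Rhr replicates 1 to 4 and 9.17 in replicate 5, against 9.0 to 9.19 in control, so 4 of the 5 Dp1Rhr arrays lay above all controls. Removing any array other than Dp1Rhr replicate 5 ended the call (9 of 10 fits, adjusted p no higher than 0.148), and removing that replicate gave an adjusted p of 0.00111. Without control replicates 2 and 3 its log2 fold change was 0.43 (adjusted p = 0.143). The call of Hopx was also lost with array weights (limma adjusted p = 0.0516), with every probe set on its own (0.0523) and with a choroid plexus covariate (0.109). Lpar1, a lysophosphatidic acid receptor of these stem cells and of oligodendrocytes, had 0.17 ± 0.04 SE (adjusted p = 0.0786). The list held 5 genes with values above 0 and 4 below.

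Intermediate progenitors and dividing cells gave no gene past the threshold. Of 4 progenitor genes, Eomes, the T-box factor of these cells, had 0.26 ± 0.10 SE (limma adjusted p = 0.216) and Insm1, a zinc finger factor, -0.23 ± 0.09 SE (adjusted p = 0.224). Their median was 0.02, with 2 above 0 and 2 below. Eomes read 5.78 to 6.22 in control and 6.01 to 6.36 in Dp1Rhr, under the median of the arrays in every mouse. So did Tfap2c, named here after its values were seen, at 5.71 to 5.82 and 5.65 to 5.80. Of 9 cell cycle genes measured, the median was 0.002, and Mki67, the proliferation antigen, read 5.72 to 5.92 in control and 5.82 to 5.87 in Dp1Rhr. The signals of Mki67, Top2a, Cdk1, Ccna2, Birc5 and Cdca8, named here after their values were seen, lay under the median of the arrays in every mouse. The median of the cell cycle list thus rests largely on low signals. Cyclin D2, Ccnd2, which adult hippocampal progenitors need in order to divide, had -0.24 ± 0.10 SE (adjusted p = 0.299), and Mcm2 of the replication licensing complex 0.07 ± 0.04 SE (adjusted p = 0.454).

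Of 15 further genes of immature neurons, 0 passed, with a median of 0.01, 8 above 0 and 7 below. Mex3a, an RNA-binding protein, had -0.15 ± 0.05 SE (limma adjusted p = 0.127). Calb2, calretinin, which young granule cells carry for a short time and mossy cells and thalamic cells carry throughout, had 0.44 ± 0.14 SE (adjusted p = 0.145). Tac2, the neurokinin B precursor, singled out after its values were seen, had 1.10 ± 0.46 SE (adjusted p = 0.276). Tac2 was highest in Dp1Rhr replicates 4, 2 and 3, at 10.34, 9.87 and 9.0, and in control replicate 3, at 9.20. The same 4 arrays had the highest values of Chrna3, a nicotinic receptor subunit of the habenula also picked after its values were seen, at 8.82, 8.56, 8.03 and 7.26, against 6.08 to 6.36 in the other 6. Tac2 is also expressed in the habenula, and the part of that tissue in its values was not tested.

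**Figure D3:**
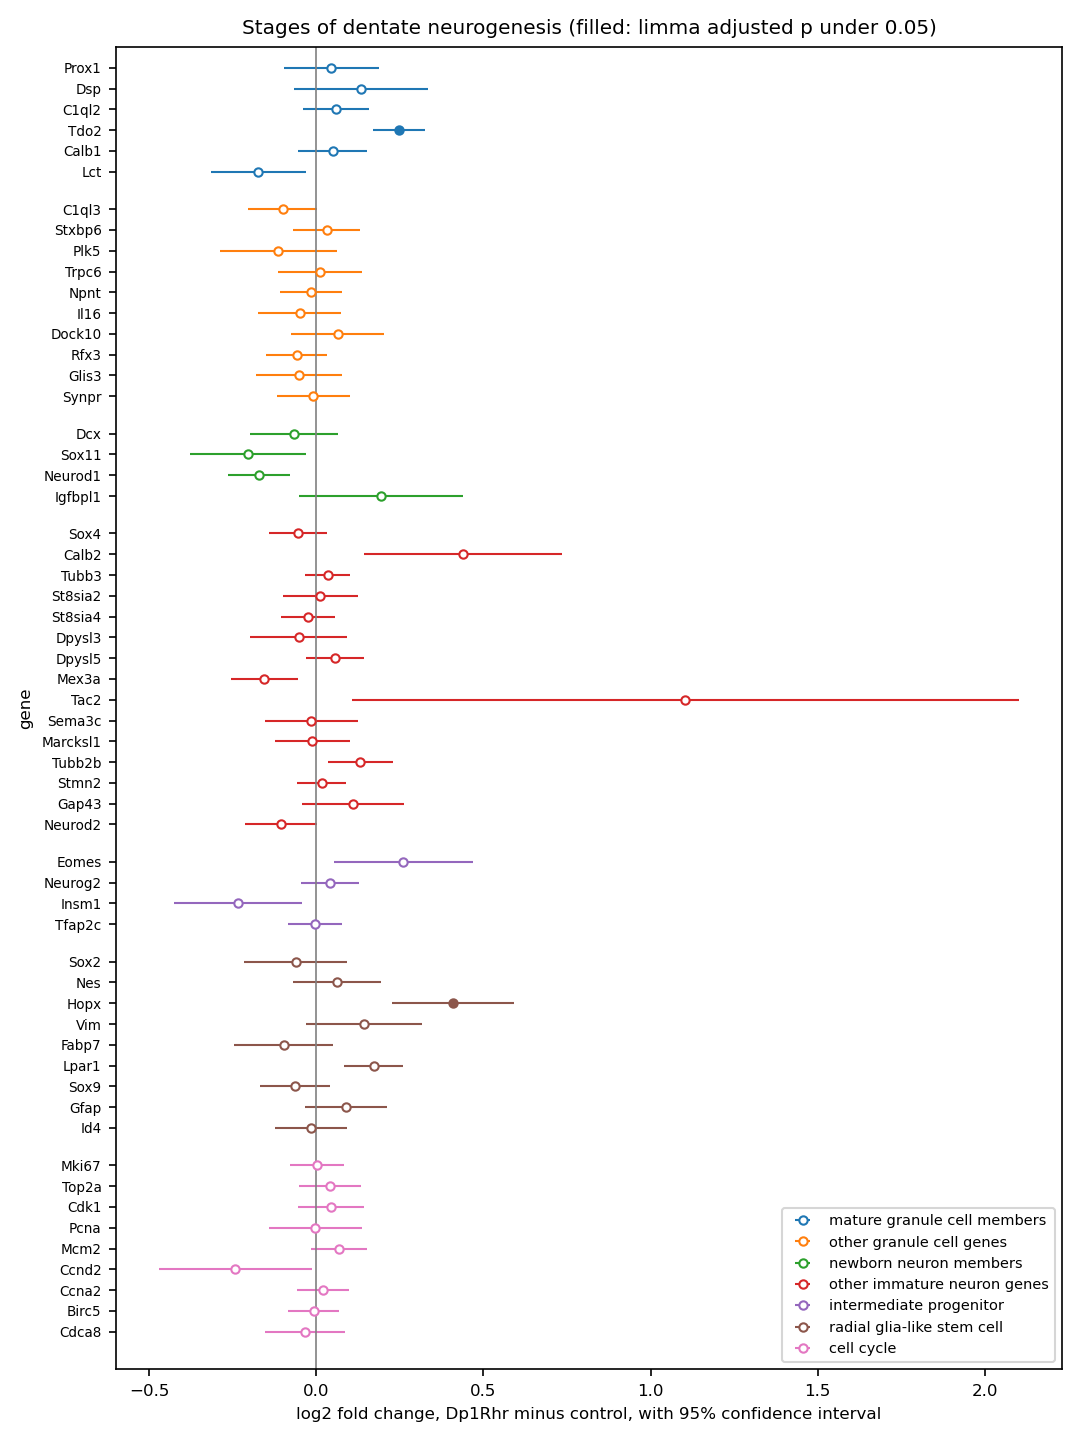
Log2 fold change (x axis, Dp1Rhr minus control, n = 5 per group) with 95% confidence intervals for the markers and for other genes of granule cells, immature neurons, progenitors, stem cells and the cell cycle, each colour a list. Filled circles, Tdo2 and Hopx, passed an adjusted p of 0.05, and Tac2 has the widest interval.

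Cells that share markers with these lists, or that the dissection could hold, were read in the same fit. Of 8 interneuron genes, 6 neuroblast genes of the subventricular zone, 4 mossy cell, 4 CA1, 4 CA2, 4 CA3, 4 oligodendrocyte precursor, 4 ependyma, 5 neocortex, 9 habenula and thalamus and 11 choroid plexus genes, 0 passed. The medians were 0.02 for interneurons, 0.18 for subventricular neuroblasts, 0.13 for mossy cells, 0.00 for CA1, 0.09 for CA2, -0.03 for CA3, 0.01 for oligodendrocyte precursors, 0.27 for ependyma, -0.09 for neocortex, 0.14 for habenula and thalamus and 0.87 for choroid plexus. The choroid plexus mean was 7.04 and 7.21 in control replicates 2 and 3, 8.40 to 9.04 in the other controls and 8.55 to 9.43 in Dp1Rhr. Closest to the threshold in these lists were Rsph1 and Foxj1 of ciliated ependymal cells (0.39 ± 0.10 SE, limma adjusted p = 0.0864, and 0.16 ± 0.04 SE, adjusted p = 0.0893) and Tcf7l2 of the thalamus (-0.86 ± 0.22 SE, adjusted p = 0.0901). The habenula and thalamus list was split, with 6 values above 0 and 3 below, Tcf7l2 among the latter. Its values ran from that of Tcf7l2 to 1.17 for Chrna3.

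The Dlx genes, factors of the GABAergic lineage that subventricular neuroblasts and interneurons share, led the list of neuroblasts, in which 6 of 6 values were above 0. Dlx2 had 0.21 ± 0.06 SE (limma adjusted p = 0.131) and Dlx6 0.22 ± 0.08 SE (adjusted p = 0.213). The list mean was 7.41 to 7.63 in control and 7.57 to 7.75 in Dp1Rhr. Values on 1 side of 0 were not particular to this list. All were above 0 for mossy cells (4 of 4), CA2 (4 of 4), ependyma (4 of 4) and choroid plexus (11 of 11). All were below 0 for neocortex (5 of 5) and immediate early genes (10 of 10). Immediate early genes had 2 of 10 past the threshold, Junb (-0.32 ± 0.05 SE, adjusted p = 0.0269) and Dusp1 (-0.65 ± 0.12 SE, adjusted p = 0.0434), and a median of -0.64. Both of these calls were lost without control replicates 2 and 3 together (log2 fold change -0.27, adjusted p = 0.109, and -0.45, adjusted p = 0.104). Both were also lost with a choroid plexus covariate (limma adjusted p = 0.109 and 0.170). With 1 array left out the call of Junb was lost in 6 of 10 fits (control replicates 2, 3 and 5, Dp1Rhr replicates 1, 2 and 4) and that of Dusp1 in 7 (the same and Dp1Rhr replicate 3).

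Without control replicates 2 and 3, 0 genes of these lists passed in either direction. Of all 19938 genes, that fit called 5 higher and 0 lower, so few calls could fall in any list. The medians were then -0.06 for the further granule cell genes, 0.02 for stem cells, 0.03 for intermediate progenitors, -0.01 for the cell cycle, 0.03 for the further immature neuron genes and 0.19 for subventricular neuroblasts. They were 0.10 for mossy cells, -0.02 for CA1, 0.08 for CA2, -0.08 for CA3 and 0.07 for interneurons. For oligodendrocyte precursors the median was -0.02, for ependyma 0.20, for habenula and thalamus 0.25 and for neocortex -0.08. Those of choroid plexus and immediate early genes moved most, to 0.26 and -0.28. Ccnd2 moved to -0.12 ± 0.09 SE (adjusted p = 0.647) and Tac2 to 1.51 ± 0.47 SE (adjusted p = 0.216).

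Left out together, control replicates 2 and 3 changed the sign of Prox1, Dsp and Dcx and moved the newborn median from -0.12 to -0.04 and the mature median from 0.05 to 0.003. With a covariate for choroid plexus signal in the fit, the mature median was -0.01 and the newborn median -0.03. Tdo2 (0.28 in both), Lct, Sox11, Neurod1, C1ql2 and Igfbpl1 kept their sign in both of these fits, with 0 of the 10 markers past the threshold in either. Over all 19938 genes, 5 were called higher and 0 lower without those controls, and 6 higher and 1 lower with the covariate.

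**Figure D4:**
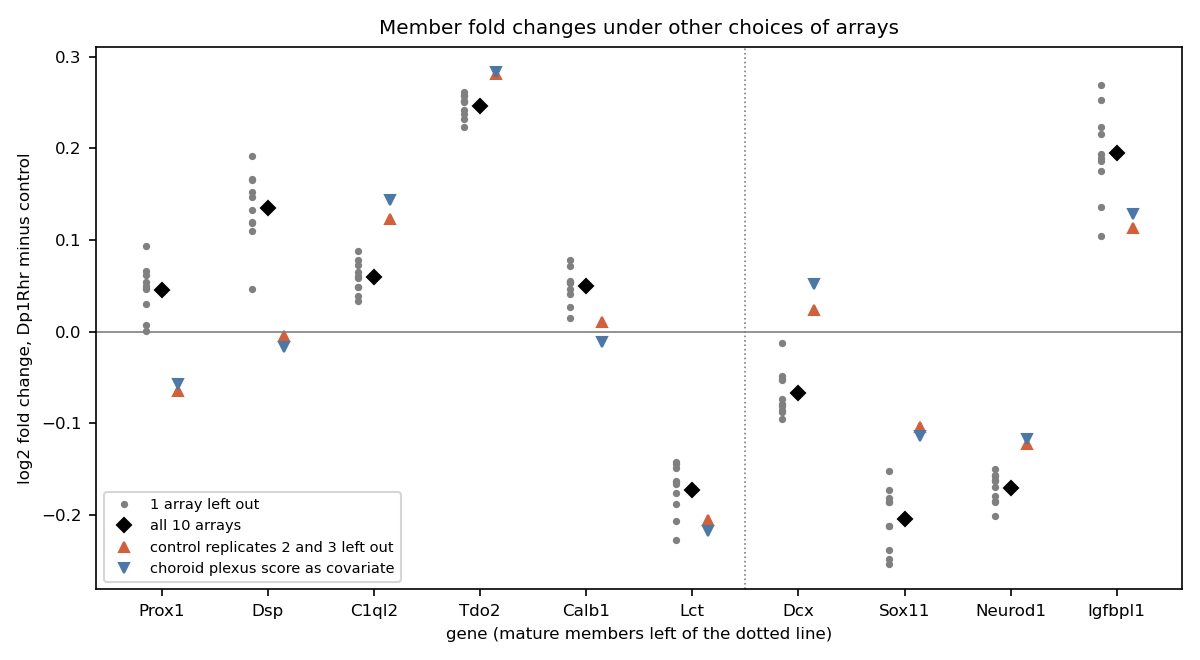
Log2 fold change (y axis, Dp1Rhr minus control) of each marker with all 10 arrays (black), with 1 array left out in turn (grey), without control replicates 2 and 3 (red) and with the choroid plexus score as covariate (blue). Tdo2 stays between 0.22 and 0.28, and Prox1, Dsp and Dcx change sign in the red and blue points, as does Calb1 in the blue.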

How the data were processed

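Gene expression was measured on Affymetrix Mouse Gene 1.0 ST arrays, with 1 array per mouse and 5 mice per group. Per the labels these are biological replicates. The authors normalised the scans by RMA (background correction, quantile normalisation, summary per probe set) and deposited log2 values for 35556 probe sets. The submitters' processing notes name RMA, limma and mm10. Quantile normalisation sets all arrays to 1 distribution, so a shift shared by most genes would not be seen, and the number of arrays limits the precision.

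Of these probe sets, 21789 carried 1 symbol in the platform annotation and were used, 1621 carried several, and 12146 had no entry there. The brightest of a gene's probe sets by the mean over all arrays was kept, giving 19938 genes, of which 19855 were matched to RefSeq GRCm38 for symbols and positions. Each probe set of a marker is compared with itself across arrays. Levels were compared between genes only to name signals near or under the middle of all signals, and for the filter.

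Groups were compared with limma 3.58.1 in R 4.3.3, fitted over all genes, two-sided, with Benjamini-Hochberg adjustment over all of them and a threshold of 0.05. The script was tested on simulated data. The two-sided exact permutation test ran over 252 assignments of arrays. FCROS, the rank method of the study, was recomputed here on the kept genes, where the study ran it on its annotated probes. It calls a near-fixed share of genes and was an alternative, beside normalisation, filter, probe set, variance, array weight, choroid plexus covariate, replicate block and left-out arrays. Named genes were the 10 markers, the genes of each other list past the threshold or with its 2 smallest p, the genes most like each marker, and Ttr. Wfs1, Rgs14 and Grik4, the brightest of their lists, were named as a check of the tissue. Genes named after their values were seen are marked as such. For lists of other cells those closest to the threshold are printed. The markers and lists were chosen with earlier results of these data known. Other mice of the same cross were not analysed here. The methods give the background as C57BL/6J where the labels give C57BL/6N.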

Additional observations from a re-analysis of the deposited data

Results flagged for a closer look

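In 60 groups of 5 values (10 markers, 3 class measures and the means of 17 other lists, in each group of mice), the gap of the highest or lowest array to its neighbour was compared with the whole range of the group, and 3 groups had a gap over 0.71 of it. Chance alone gives such a gap in about 1 of 20 groups. For Lct, lactase, control replicate 2 read 9.54, the next control 9.78 and the highest 9.88, a ratio of 0.720. Without control replicates 2 and 3 the log2 fold change of Lct was -0.21 (limma adjusted p = 0.177). For the mean of the subventricular neuroblast genes, Dp1Rhr replicate 5 read 7.57, the next array 7.70 and the highest 7.75, a ratio of 0.733. For the mean of the oligodendrocyte precursor genes, control replicate 4 read 9.17, the next control 9.02 and the lowest 9.0, a ratio of 0.858.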

How the results depend on the processing

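Tdo2 kept its direction in all 21 alternatives (0.22 to 0.28) and its call in 14 of them. Over all genes, 125 were called higher and 35 lower with limma. These counts were 4 and 0 with the replicate number as a block, 6 and 1 with the choroid plexus score, 5 and 0 without control replicates 2 and 3, 213 and 67 with array weights, 678 and 397 by FCROS, and 5 to 217 and 0 to 67 with 1 array left out. With arrays centred on their medians 17 genes were called lower, and 21 with every probe set on its own. Among mature markers, Tdo2, the 1 called higher, was lost (0 called) with the block (adjusted p = 0.111), with the choroid plexus score (0.0610) and without control replicates 2 and 3 (0.0509), and 0 to 1 were called with 1 array left out. With the block the calls of Hopx (limma adjusted p = 0.144), Junb (0.0737) and Dusp1 (0.0554) were lost too. FCROS called 1 mature marker lower (Lct) and 2 newborn markers (Sox11 and Neurod1). The mature median was -0.0141 and the newborn median -0.031 with the choroid plexus score, and the newborn median was -0.0402 without control replicates 2 and 3. Values changed sign with the score and without those controls for Prox1 (-0.0568 and -0.065), Dsp (-0.0173 and -0.005) and Dcx (0.0523 and 0.0237), and with the score for Calb1 (-0.0109). The filter at the 40th percentile of signal left out Igfbpl1. Why these values moved was not tested. Same-numbered arrays deviated from their group means with correlations of -0.34 to 0.12, and 1 of the 10 arrays was most like its own number, so the numbers were not taken to pair the mice and the block is given here only. Tdo2 and Igfbpl1 had signals at percentiles 40.9 and 39.9 of all genes, where background weighs more on the fold change. The filter thus kept Tdo2 only narrowly.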
